A study of Mus musculus with 96 samples.

Results

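The immunity-related GTPases (IRG proteins) are a family of interferon-inducible GTPases of the mouse. Genes named Irgm1, Irgm2, Igtp, Iigp1, Tgtp1, Tgtp2, Gm4841 and BC023105 were taken from the count table by matching its Ensembl identifiers to GENCODE M21 symbols. These are 8 of the 54833 features counted, of which 49585 carry an Ensembl identifier and 5248 are numbered loci without a symbol. The 8 genes were chosen by their levels in sleep-deprived against control libraries, which earlier results of these data had shown, so their difference between sleep-deprived and control libraries is given below as a description, without a p-value. Counts of these genes past the threshold stand beside the share of all genes past it, and nothing is read from them.

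IRG proteins are made at low levels until interferon, above all interferon gamma, reaches the cell. Interferon gamma binds a receptor made of Ifngr1 and Ifngr2, the kinases Jak1 and Jak2 pass the signal on, and transcription factors including Irf1 then act on GAS elements (gamma-activated sites) and interferon-stimulated response elements (ISRE) in the promoters of IRG genes. The effector members Iigp1 (also called Irga6) and Tgtp1 and Tgtp2 (Irgb6) coat and disrupt the vacuoles of intracellular parasites such as Toxoplasma. The regulatory members Irgm1, Irgm2 and Igtp (Irgm3) sit on the cell's own membranes and keep the effectors inactive there.

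Of the members, 5 lie on chromosome 11 and 3 on chromosome 18 (GRCm38). Irgm1 (ENSMUSG00000046879) occupies chr11:48861968-48871683 on the minus strand, Tgtp1 (ENSMUSG00000078922) chr11:48985327-48994172 and Tgtp2 (ENSMUSG00000078921) chr11:49057194-49064206 on the same strand. Igtp (ENSMUSG00000078853, chr11:58199556-58207591) and Irgm2 (ENSMUSG00000069874, chr11:58199618-58222782) lie together on the plus strand, where GENCODE gives them 162 exonic bases in common. The chromosome 18 members are Gm4841 (ENSMUSG00000068606, chr18:60268305-60273272, minus strand), Iigp1 (ENSMUSG00000054072, chr18:60376027-60392634, plus strand) and BC023105 (ENSMUSG00000063388, chr18:60441765-60442980, plus strand), which is annotated as a processed pseudogene. Only alignments of high mapping quality were counted, and the counter leaves out reads on exons of several genes by default, which touches these genes unequally. Of the 150-base words in Tgtp1 transcripts 64.9% also occur in another IRG transcript, nearly all of them in Tgtp2, and of those in Tgtp2 68.4% occur in Tgtp1. The share was 0.739% for Igtp, 0.437% for Irgm2 and 0 for Irgm1, Iigp1, Gm4841 and BC023105, counted over 18 IRG genes. Tgtp1 itself collected 23 counts in all 96 libraries and was at 0 in 81 of them. Its exons also overlap exons of Gm12185 on the same strand, and no such overlap is annotated for Tgtp2. The shares of shared words are close for Tgtp1 and Tgtp2, and why only Tgtp1 was nearly empty was not tested. Tgtp2 stands in the results for this gene pair, through the reads that can be told apart from Tgtp1.

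All mice were male wild-type C57BL/6 animals of 6 to 8 weeks, entrained to a 12 h light/dark cycle and, per the study's text, sampled in constant darkness. The sleep-deprived mice (SD) were made to walk for 10 h in a turning drum during the phase in which mice rest, and the controls (CON) were left undisturbed. Forebrain, cerebellum, liver and kidney were then taken at circadian times CT4, CT8, CT12, CT16, CT20 and CT24, and 2 total RNA libraries were made per group, giving 96 stranded libraries in 48 groups. No group walked without losing sleep, so lost sleep and forced walking cannot be told apart. Libraries held 24760295 to 58486579 counted read pairs, and values below are CPM, the count divided by the library total on the usual common scale. The summed level of 4 hepatocyte markers (Alb, Apoa1, Ttr and Serpina1c) was 62975 to 86141 CPM in liver and at most 2772 CPM elsewhere, the latter in a cerebellum SD library. Alb alone was at 56244 to 77101 CPM in liver, at most 5 CPM in cerebellum and at most 91.4 CPM in kidney. The 4 kidney markers summed to 13525 to 20036 CPM in kidney and at most 1.51 CPM elsewhere. In the kidney, 20 of 24 libraries carry a title and a sample description that differ in condition or time, and in 10 of them the condition itself differs. The titles were followed, and for both CT24 groups both labels give the same condition. Earlier results of these data had set 1 cerebellum library apart, CON CT8 replicate 1, and the cerebellum values that rest on it are given with and without it.

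The promoters of the chromosome 11 members were searched for interferon elements. Promoter entries from RefSeq (GRCm38.p6) were at hand for Irgm1, Irgm2, Igtp, Tgtp1 and Tgtp2. None was at hand for Iigp1, Gm4841 and BC023105, so these were not searched. Each stretch below is written 5′ to 3′ on the gene's own strand and lies upstream of the RefSeq start, with matches to the ISRE core (GAAA, any 2 bases, GAAA) or to the GAS sequence TTCNNNGAA in capitals. They cover chr11:48871429-48871458 for Irgm1, chr11:58199456-58199535 for Igtp, chr11:58214877-58214956 for Irgm2, chr11:48992267-48992346 for Tgtp1 and chr11:49064233-49064312 for Tgtp2.
Irgm1: tgtttcaaGAAATAGAAACCGAAActgatt
Igtp: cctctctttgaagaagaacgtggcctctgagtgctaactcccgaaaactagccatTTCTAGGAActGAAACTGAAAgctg
Irgm2: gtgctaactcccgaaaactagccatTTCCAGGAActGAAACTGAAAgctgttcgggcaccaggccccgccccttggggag
Tgtp1: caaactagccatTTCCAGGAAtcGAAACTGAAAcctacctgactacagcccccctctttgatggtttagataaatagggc
Tgtp2: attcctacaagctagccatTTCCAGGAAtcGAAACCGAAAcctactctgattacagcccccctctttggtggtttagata

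All 5 promoters held the ISRE core, which 3.44% of the 32851 mouse promoter entries of the same length hold on either strand. Irgm1 held it at 2 overlapping positions, 30 and 24 bases before the start, and had no GAS match in its window. Igtp, Irgm2, Tgtp1 and Tgtp2 held a GAS match as well, against 8.3% of all entries, and in each of them it began 11 bases before the ISRE core. This spacing was noticed in these sequences and then searched for on both strands as the GAS sequence, any 2 bases and the ISRE core. It occurred in 5 of 32851 entries, or 0.0152%, and all 5 were IRG genes, namely Igtp, Irgm2, Tgtp1, Tgtp2 and Gm12185. Over the 44 bases around the element, Igtp and Irgm2 were identical at 43 positions and Tgtp1 and Tgtp2 at 40, while Tgtp2 and Igtp were identical at 33. A match is a stretch of letters and does not show that a factor binds there.

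In control animals the members were expressed in liver and kidney, most of them higher in liver, and at far lower levels in the brain, as the plot of levels in control libraries shows. Irgm1, found on Golgi and lysosomal membranes, ranged from 95.9 to 183 CPM in liver (median 131), from 66.7 to 213 CPM in kidney (median 113), from 7.23 to 11.2 CPM in forebrain (median 8.59) and from 4.16 to 9.53 CPM in cerebellum (median 6.39), with 12 control libraries each. Igtp ranged from 65.0 to 267 CPM in liver (median 103), 25.5 to 132 CPM in kidney (median 58.6), 2.58 to 6.71 CPM in forebrain (median 4.07) and 1.46 to 3.81 CPM in cerebellum (median 2.92). For both genes the liver and kidney ranges overlapped, the forebrain and cerebellum ranges overlapped, and no brain library reached the lowest liver or kidney library. Iigp1 ran from 104 to 361 CPM in liver (median 146) and from 7.47 to 39.3 CPM in kidney (median 20.8), with medians of 0.878 CPM in forebrain and 0.928 CPM in cerebellum. The liver and kidney ranges of this effector did not overlap.

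**Figure D1:**
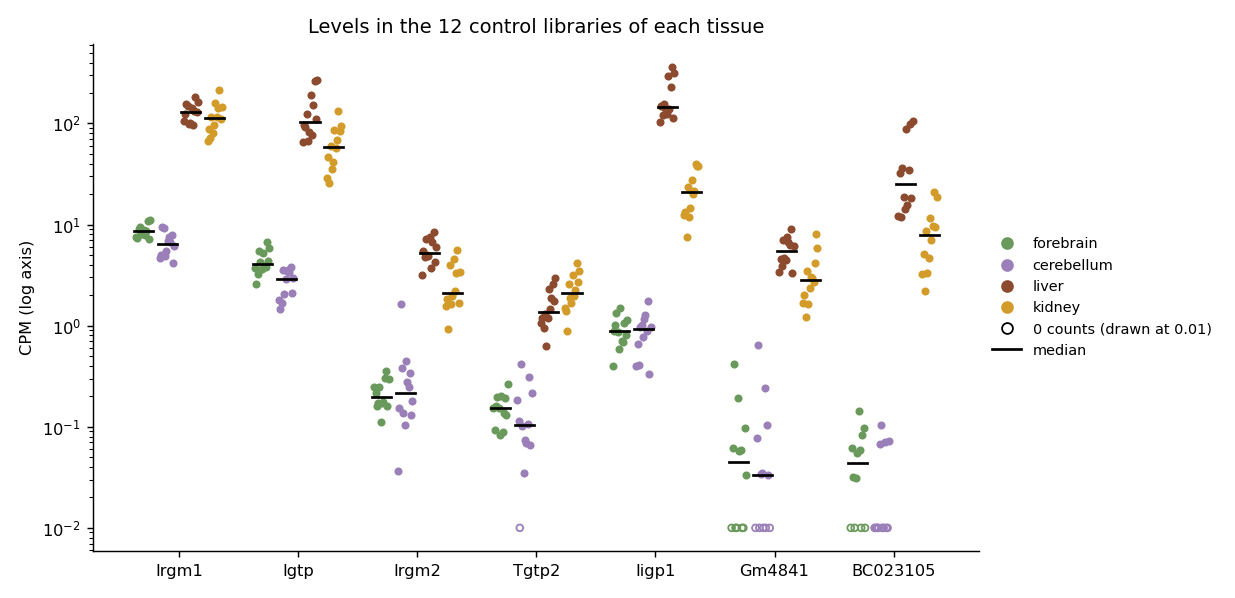
CPM (log axis) of the 7 members with more than a handful of counts in the 12 control libraries of each tissue, with black bars at the medians and open circles at 0.01 for libraries at 0 counts. Liver and kidney points lie above forebrain and cerebellum points, except that 1 cerebellum library reached 1.62 CPM of Irgm2, within the kidney range of 0.933 to 5.54 CPM.

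Tissue was not the contrast that chose the genes. A choice by SD against CON levels may still favour genes with enough counts in tissues where many genes were called. The SD against CON fits called 18.2% of genes in liver, 2.30% in kidney, 0.0303% in forebrain and 0% in cerebellum, in either direction. The tissue tests below are therefore descriptions and not independent of the choice. The fit over the 48 control libraries, with an adjusted p below 0.05 and a difference of more than 1 on the log2 scale as the limit, placed 7 of 7 tested members higher in liver than in forebrain and 7 of 7 higher in kidney than in forebrain, where 27.2% and 27.6% of all 23061 genes tested were called in those directions. Against cerebellum the count was again 7 of 7 for liver and for kidney, with 29.2% and 30.7% of all genes called. The low-count filter of this fit ran over all tissues together. At least Tgtp2, Gm4841 and BC023105, too low for the fits within the brain, passed it only through liver and kidney. Their direction was thus fixed by the filter, and the counts of 7 are not to be read against the shares of all genes. Irgm1 was higher in liver than in forebrain by a log2 difference of 4.49 ± 0.13 (SE, adjusted p = 2.13e-32, edgeR), and Iigp1 by 8.20 ± 0.25 (adjusted p = 8.37e-32). Gm4841 had 0 to 13 counts and BC023105 0 to 5 counts in a forebrain control library, so the size of their tissue difference is known only roughly.

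Liver and kidney differed gene by gene. Of the 7 tested members 5 were higher in liver past both limits, against 15.6% of all genes, and 0 were lower. The log2 difference was 3.63 ± 0.19 for Iigp1 (adjusted p = 5.41e-22), 2.75 ± 0.26 for BC023105 (6.62e-13), 1.62 ± 0.23 for Irgm2 (3.9e-08), 1.6 ± 0.17 for Igtp (8.3e-12) and 1.38 ± 0.32 for Gm4841 (0.00017), all edgeR adjusted p-values. Irgm1 differed by 0.73 ± 0.11, below the size limit though with an adjusted p of 1.71e-07. Tgtp2 did not differ detectably, at -0.02 ± 0.20 (adjusted p = 0.947), with 0.626 to 2.95 CPM in liver and 0.880 to 4.19 CPM in kidney. Between the brain regions none of the 7 passed both limits, where 32.3% of all genes did, and 2 of the 7 had an adjusted p below 0.05, namely Igtp, higher in forebrain by 0.86 ± 0.20, and Irgm1, higher by 0.60 ± 0.12. Tgtp2, Gm4841 and BC023105 had too few counts in the brain for this comparison to show much.

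Levels of different genes can be set against each other only per length. Divided by kilobases of exon, median control levels in liver were 50.8 CPM per kb for Igtp, 25.0 for Iigp1, 22.5 for Irgm1, 20.8 for BC023105, 1.91 for Gm4841, 1.42 for Irgm2 and 0.466 for Tgtp2. In kidney the order was Igtp (29.0), Irgm1 (19.4), BC023105 (6.48), Iigp1 (3.56), Gm4841 (0.990), Tgtp2 (0.714) and Irgm2 (0.568). A guard, Igtp, led in both tissues, and the annotated pseudogene BC023105 stood among the 4 most abundant members in both. The level of Tgtp2 covers only reads that are distinct from Tgtp1. The full exon length was used for every gene, though reads on exons of several genes, such as those Igtp and Irgm2 share, were not counted. The order of the members is therefore rough.

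After sleep deprivation all 7 members with enough counts were lower in kidney and in liver, and the 4 that could be fitted in the brain were lower there too by smaller or less certain amounts. The fit over all times called 7 of 7 lower in kidney, where 2.12% of the 21528 genes tested were called lower (2.30% in either direction), and 7 of 7 lower in liver, where 8.80% of 19708 genes were. In forebrain and cerebellum 0 of 4 were called, with 0.0303% and 0% of genes called lower (DESeq2 also called 0 of 4 in each). These calls come from the contrast that chose the genes and are not evidence about them. The genes that stayed out of the fit through their low counts were Tgtp1 in every tissue and, in the brain, Tgtp2, Gm4841 and BC023105. With whole tissues, fewer cells that express a gene and less RNA per cell cannot be told apart.

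**Figure D2:**
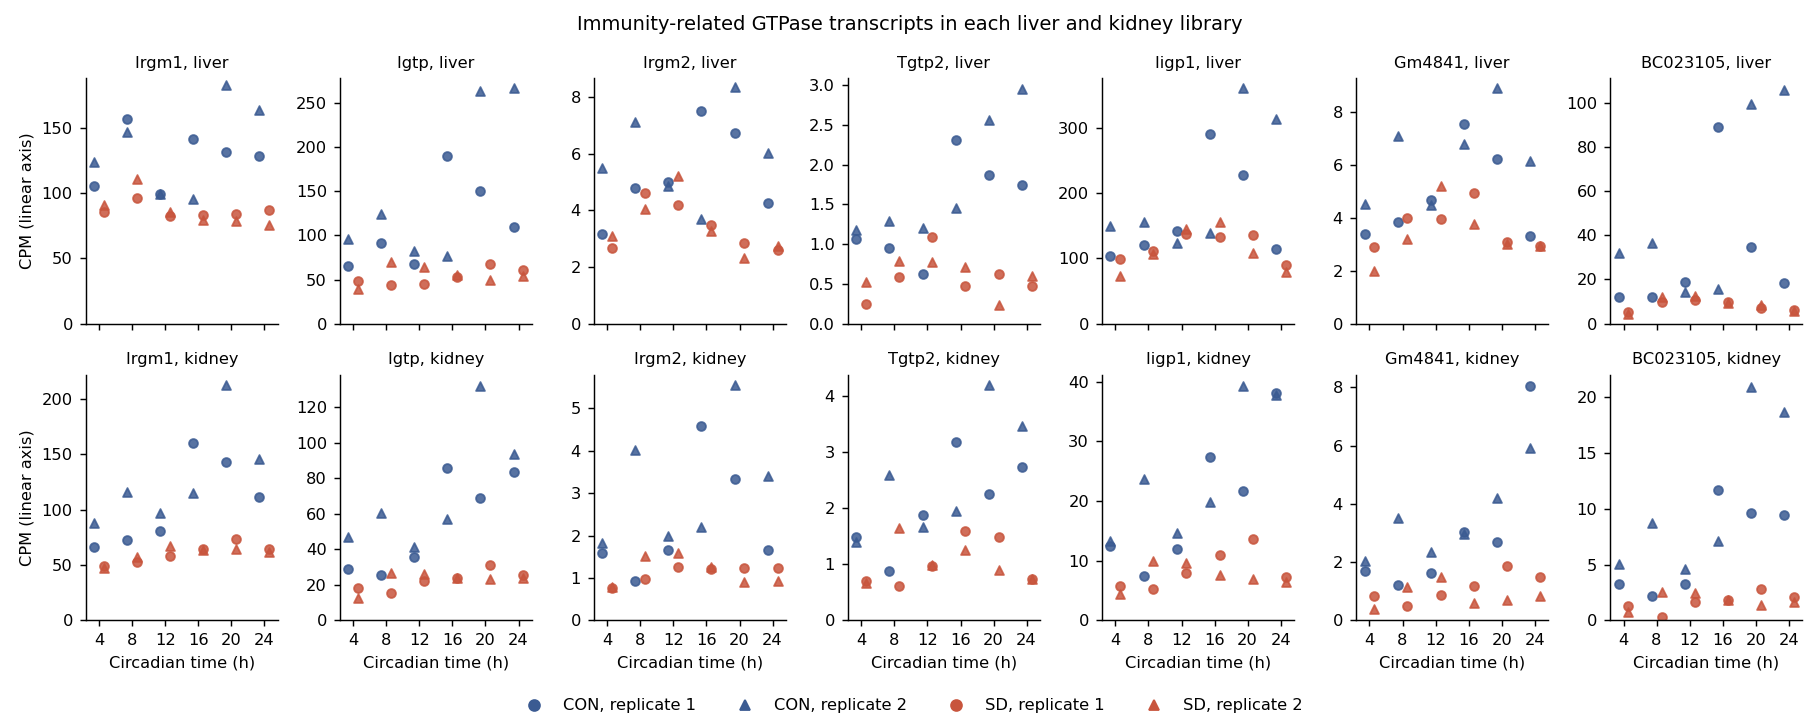
CPM (linear axes, each starting at 0) against circadian time in every liver (upper row) and kidney (lower row) library, blue for CON and red for SD, circles for replicate 1 and triangles for replicate 2. The red points form a low and narrow band while the blue points lie above them and spread widely from CT16 to CT24, with the bands closest at CT12 in liver.

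Of the regulatory members, Igtp in kidney ran from 25.5 to 132 CPM in CON (median 58.6) and from 12.5 to 31.2 CPM in SD (median 23.7), so that 10 of 12 control libraries lay above every SD library. In liver it ran from 65.0 to 267 CPM in CON (median 103) and from 38.8 to 69.4 CPM in SD (median 53.4), again with 10 of 12 control libraries above every SD library. The fitted log2 change of Igtp was -1.41 ± 0.16 (SE) in kidney and -1.05 ± 0.18 in liver, a level 2.65-fold and 2.07-fold lower. Irgm1 was steadier from library to library, with SD libraries between 46.9 and 73.1 CPM in kidney (median 62.5, control median 113) and between 75.4 and 111 CPM in liver (median 84.6, control median 131). Its log2 change was -0.93 ± 0.10 in kidney and -0.45 ± 0.08 in liver, and at each of the 6 times both SD libraries lay below both controls in both tissues. Irgm2, at 0.933 to 5.54 CPM in kidney controls and 0.773 to 1.59 CPM in kidney SD libraries, changed by -1.23 ± 0.21 there and by -0.58 ± 0.15 in liver.

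Among the effectors, Iigp1 was lower by a log2 value of -1.42 ± 0.19 in kidney and -0.53 ± 0.17 in liver. Its kidney libraries ran from 7.47 to 39.3 CPM in CON and from 4.48 to 13.6 CPM in SD (median 7.44), and 8 of 12 controls lay above every SD library. In liver the 72.1 to 156 CPM of the SD libraries (median 110) overlapped the 104 to 361 CPM of the controls, and only 4 controls lay above every SD library. The liver value of Iigp1 is the least secure of the 14, because the call was lost in 10 of the 24 fits that each left out 1 library. Tgtp2 ran from 0.880 to 4.19 CPM in kidney controls (median 2.1) against 0.611 to 1.65 CPM in SD (median 0.938), and from 0.626 to 2.95 CPM in liver controls (median 1.37) against 0.227 to 1.09 CPM in SD (median 0.592). Its log2 change was -1.18 ± 0.19 in kidney and -1.25 ± 0.25 in liver, close to each other, as were its control levels in the 2 tissues.

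The remaining chromosome 18 genes include the member with the greatest difference. BC023105 reached 106 CPM in a control liver and ran from 11.8 to 106 CPM in liver CON (median 25.3) and from 4.45 to 12.3 CPM in liver SD (median 8.93). In kidney it ran from 2.21 to 20.9 CPM in CON (median 7.89) and from 0.346 to 2.85 CPM in SD (median 1.75). The log2 change was -2.21 ± 0.28 in kidney and -2.0 ± 0.36 in liver, 4.64-fold and 3.99-fold lower. Gm4841, a neighbour of Iigp1 whose role is not assigned here, ran from 1.23 to 8.03 CPM in kidney CON and from 0.390 to 1.88 CPM in kidney SD, with a log2 change of -1.64 ± 0.23 there and -0.53 ± 0.14 in liver. Genes of both clusters were thus lower in both tissues. Igtp, Irgm2, Irgm1, Iigp1, Gm4841 and BC023105 had larger fitted changes in kidney than in liver, and Tgtp2 a slightly smaller one (-1.18 against -1.25). The difference between tissues was not tested.

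**Figure D3:**
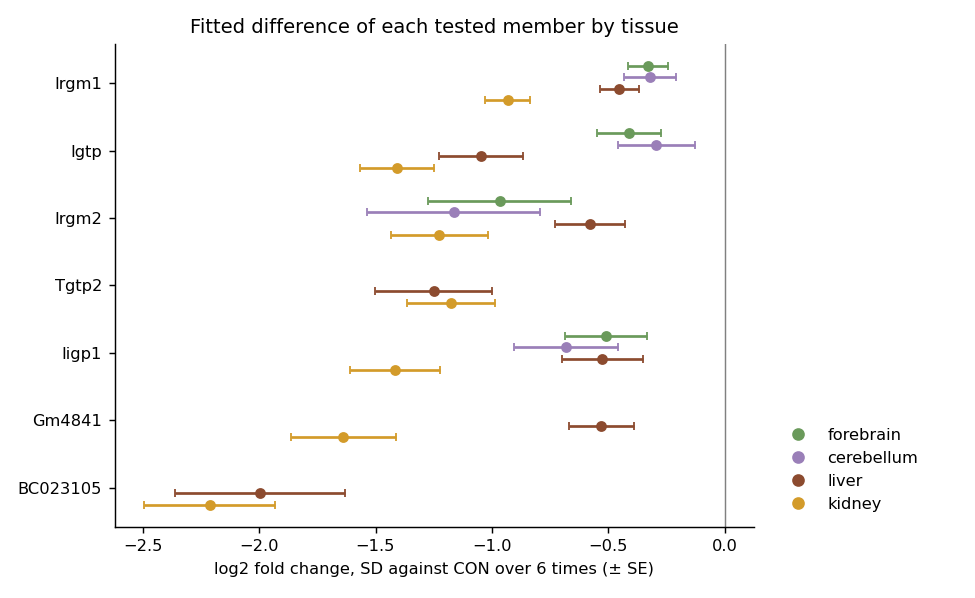
Log2 fold change of SD against CON over all 6 times for each member and tissue, with bars of 1 SE. All points lie below 0, and the forebrain and cerebellum values of Irgm1, Igtp, Irgm2 and Iigp1 lie between -1.16 and -0.29 without passing the adjusted threshold.

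In forebrain Irgm1 ran from 7.23 to 11.2 CPM in CON and from 5.67 to 9.27 CPM in SD (log2 change -0.33 ± 0.09), and in cerebellum from 4.16 to 9.53 and from 3.46 to 7.86 CPM (-0.32 ± 0.11). The values of Igtp were -0.41 ± 0.14 and -0.29 ± 0.17, and those of Iigp1 -0.51 ± 0.17 and -0.68 ± 0.22 in forebrain and cerebellum. Without the library set apart, the cerebellum values were -0.30 for Irgm1, -0.36 for Igtp and -0.78 for Iigp1. Irgm2 was at 0.111 to 0.356 CPM in forebrain CON and 0.0310 to 0.293 CPM in forebrain SD, which is 1 to 13 counts a library, and changed by -0.97 ± 0.31. In cerebellum its change was -1.16 ± 0.37, or -0.83 without CON CT8 replicate 1, and that control library held 1.62 CPM against at most 0.446 CPM in the other 11. At CT8 alone Irgm2 in cerebellum passed the threshold (-2.87 ± 0.70, with 9.73% of all genes called lower at that time), and without that library no member did. The brain groups overlapped for every member. For Irgm1 the SE in forebrain and cerebellum (0.09 and 0.11) was close to that in liver and kidney (0.08 and 0.10). The few counts of Irgm2 allow only large changes to be seen.

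The difference between groups was not even around the clock. In kidney the median log2 change over the 7 members was -1.30 at CT4, -1.08 at CT8, -0.67 at CT12, -1.47 at CT16, -1.61 at CT20 and -2.08 at CT24, and all 7 were lower at every time. In liver the medians were -0.58, -0.47, 0.13, -0.58, -1.45 and -1.20 in the same order, and 3 of 7 were lower at CT12 against 7 of 7 at the other times. The gap was thus narrowest at CT12 in both tissues and widest at CT20 and CT24, without a test of that difference. At CT12 in liver both SD libraries held fewer CPM of Igtp (45.4 and 64.5) than either control (67.4 and 81.9), while Iigp1 was at 137 and 145 CPM in SD and at 141 and 123 CPM in CON. Irgm2 stood at 4.21 and 5.21 CPM in SD and at 5.0 and 4.88 CPM in CON, lower in mean CPM and higher by 0.13 ± 0.30 in the TMM-scaled fit.

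At single times, with 2 libraries against 2, 5 of the 42 pairs of member and time were called in kidney and 0 of 42 in liver, while DESeq2 called 13 and 7. The kidney pairs were Irgm1 at CT20 (-1.40 ± 0.20), where 0.0139% of all genes were called lower, and Irgm1 (-1.04 ± 0.20), Igtp (-1.87 ± 0.35), Iigp1 (-2.48 ± 0.41) and Gm4841 (-2.60 ± 0.50) at CT24, where 0.293% were. Like the counts over all times, these come from the contrast that chose the genes. Iigp1 in those libraries stood at 38 and 37.8 CPM in CON and at 7.26 and 6.51 CPM in SD, and Gm4841 at 8.03 and 5.91 CPM against 1.49 and 0.834 CPM. At the other times the share of genes called lower in kidney was 0.00465% at CT4 and at CT8 and 0% at CT12 and CT16. In liver it was 0.00507% at CT4, 0.396% at CT8, 0.198% at CT24 and 0% otherwise, and in forebrain, with 0 members called, 0.433% at CT20 and 0% otherwise. CT24 is also the time at which both kidney labels give the same condition for each library.

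In liver and kidney the control libraries spread far more than SD libraries. The summed level of the 8 members ran from 295 to 928 CPM in liver CON, a 3.14-fold range, and from 212 to 318 CPM in liver SD, a 1.5-fold range. In kidney the sum ran from 111 to 419 CPM in CON (3.79-fold) and from 66.4 to 125 CPM in SD (1.89-fold). In the brain the ranges were alike, 1.72-fold in CON and 1.65-fold in SD forebrain and 2.13-fold and 2.16-fold in cerebellum. All 7 tested members had a larger coefficient of variation in CON than in SD in both liver and kidney, against 40.7% of all genes in liver and 48.5% in kidney. In forebrain 2 of 4 tested members did, against 66.6% of all genes, and in cerebellum 4 of 4, against 73.3%. At least 8 of 12 controls lay above every SD library for 7 of 7 members in kidney, where 0.873% of all genes did so, and for 4 of 7 in liver, where 3.87% did. All of these counts use the contrast that chose the genes.

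Some control groups had the same replicate number high in both tissues. Titles give the same replicate number to a liver and a kidney library of one group, though the labels do not say that they came from one mouse. Control CT20 replicate 2 had the highest sum in both tissues (928 CPM in liver and 419 CPM in kidney), and CT16 replicate 1 (729 and 296 CPM) and CT24 replicate 2 (867 and 309 CPM) were also high in both. The library with the larger value of its pair carried the same number in liver and kidney in 11 of 12 groups for Igtp, 10 of 12 for Irgm1 and BC023105, 8 of 12 for Irgm2, Iigp1 and Gm4841 and 6 of 12 for Tgtp2. Of all 18506 genes tested in both tissues, 4.81% reached 10 of 12, and the median gene reached 7. Between forebrain and kidney Irgm1 reached 10 of 12 (2.53% of all genes did) and between forebrain and cerebellum Iigp1 did (2.64%). Over all genes the numbers matched in only some groups, as the correlation of same-numbered deviations between liver and kidney ran from -0.06 to 0.39.

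**Figure D4:**
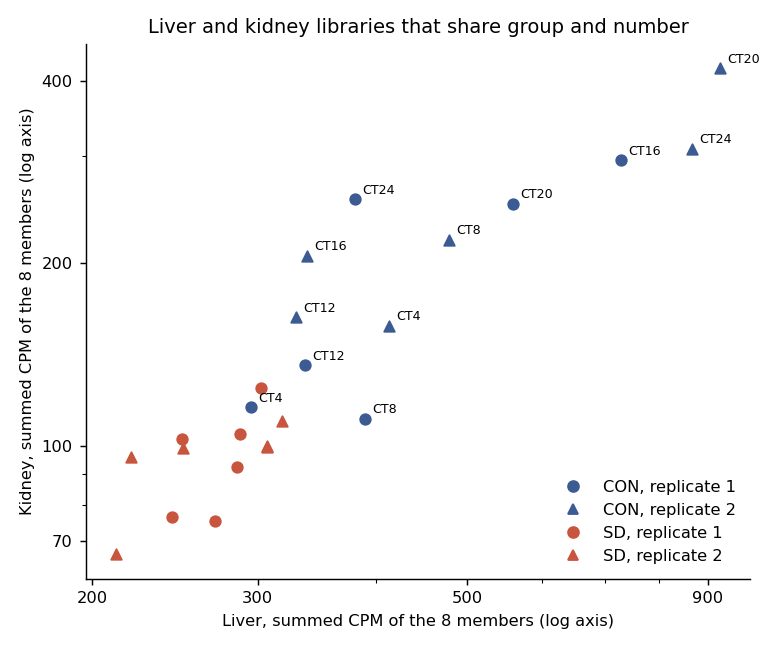
Summed CPM of the 8 members in the liver library (x, log axis) and the kidney library (y, log axis) of the same condition, time and replicate number, blue for CON with its time and red for SD. The 3 points farthest to the upper right are control CT20 and CT24 replicate 2 and CT16 replicate 1, and all SD points lie below 320 CPM in liver and at or below 125 CPM in kidney.

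Time of day was tested within each condition. The choice of genes did not compare times, but it used the levels in these same libraries. The tests between times are therefore not fully independent of the choice. In kidney controls Irgm1 (adjusted p = 0.0404, edgeR) and Gm4841 (adjusted p = 0.0413) differed between times, 2 of 7 members, where 4.49% of all genes did. Gm4841 was at 1.68 and 2.03 CPM at CT4 and at 8.03 and 5.91 CPM at CT24, and Irgm1 at 66.7 and 87.6 CPM at CT4 and at 143 and 213 CPM at CT20. Both calls are fragile, lost in 7 (Irgm1) and 8 (Gm4841) of the 12 fits that each left out 1 library. They also rest on the titles, from which the description of 20 kidney libraries differs in condition or time. In liver controls 0 of 7 passed, where 15.6% of all genes did, with adjusted p-values from 0.056 (Irgm1) to 0.431 (Irgm2), and 3 of the 7 had an unadjusted p below 0.05.

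In SD liver only BC023105 differed between times (adjusted p = 0.0104, 1 of 7 members and 7.75% of all genes), from 5.33 and 4.45 CPM at CT4 through 10.6 and 12.3 CPM at CT12 to 6.31 and 5.53 CPM at CT24. In SD kidney 0 of 7 passed, with 0.718% of all genes called, adjusted p-values from 0.0997 (Irgm1) to 0.879 (BC023105) and 2 unadjusted p-values below 0.05. In the brain 0 members passed in either condition, where 0% (CON) and 0.0179% (SD) of genes did in forebrain and 0% and 0.266% in cerebellum. Unadjusted p-values below 0.05 were found for 2 members in CON cerebellum, 1 in SD cerebellum and 0 in forebrain. A 24 h cosinor called 2 members in CON kidney (4.10% of all genes), 1 in CON liver (9.13%), 4 in SD liver (12.9%) and 0 in SD kidney (1.94%), and 0 in CON and SD forebrain (0.103% and 0.00447%) and cerebellum (0.00465% and 0.0981%). Whether the time course differed between CON and SD was not tested. In SD libraries a difference between times can go with circadian time or with time since deprivation, and these cannot be told apart.

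Some IRG genes outside the 8 were lower as well. Of 10 further IRG genes, listed with earlier results of these data known, 8 could be fitted in liver and 6 in kidney. Of these 4 and 5 were lower in SD past the threshold, with none higher, against 8.80% and 2.12% of all genes lower. Because of that choice, these counts and the p-values that follow are descriptions and not independent evidence. Gm12185, which carries the same GAS and ISRE spacing as Igtp and shares 74 of its 150-base words with Tgtp1, was lower by a log2 value of -1.42 ± 0.25 in liver (adjusted p = 0.000401) and -1.12 ± 0.17 in kidney (0.000445, both edgeR). Gm5431 was lower by -0.63 ± 0.15 and -1.07 ± 0.19 (adjusted p = 0.00582 and 0.00131), and 9930111J21Rik2 by -0.55 ± 0.08 and -0.26 ± 0.06 (5.99e-05 and 0.0311). The promoter entries of Gm5431, 9930111J21Rik2, Ifi47 and Irgq held neither the ISRE core nor a GAS match. Whether these elements go with lower levels in SD was not tested. Gm4951, at a median of 213 CPM in liver CON and 202 CPM in liver SD, did not differ detectably there (0.02 ± 0.05, adjusted p = 0.858) and was lower in kidney (-0.60 ± 0.10, adjusted p = 0.00093). Gm12250 was called in kidney (-1.25 ± 0.32, adjusted p = 0.0374) and 9930111J21Rik1 in liver (-1.76 ± 0.60, adjusted p = 0.0418, at most 0.401 CPM), and these calls were lost in 15 and 18 of 24 fits that left out 1 library, as was that of 9930111J21Rik2 in kidney in 11. In forebrain 0 of 5 and in cerebellum 0 of 3 were called by edgeR, with 1 and 0 unadjusted p-values below 0.05. Ifi47 was at most 0.795 CPM and was not called in liver (-0.35 ± 0.36, adjusted p = 0.56). Irgq, a relative of the family, was not called at 0.14 ± 0.11 in liver and 0.06 ± 0.08 in kidney (adjusted p = 0.467 and 0.815). Irgc1 had too few counts for a fit in liver and kidney, and F830016B08Rik is listed at 0 in all 96 libraries.

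Many genes of the interferon pathway around the family were lower as well in liver and kidney. In a list of 51 genes of interferon signalling and interferon-induced effectors, chosen with earlier results of these data known, 28 of the 46 fitted in liver were lower and 1 was higher, with a list median of -0.53, against 8.80% and 9.42% of all genes and a median of 0.01. In kidney 27 of 45 were lower and 0 higher, with a median of -0.51, against 2.12% and 0.181% of all genes and a median of 0.01. Because of how the list was chosen, its counts and p-values, here and below, are descriptions and not independent evidence. In forebrain 2 of 40 were lower, the GTPase Gbp4 (-1.02 ± 0.16, adjusted p = 0.0161) and the MHC class I transactivator Nlrc5 (-0.98 ± 0.15, adjusted p = 0.0104), and in cerebellum 0 of 41 by edgeR and by DESeq2, with 10 unadjusted edgeR p-values below 0.05. The list medians there were -0.19 in both regions. The parts of the list differed in their counts. Of the fitted genes of interferon gamma signalling 8 of 11 were lower in liver and 4 of 11 in kidney, and of the interferon-induced effectors 19 of 29 and 21 of 28. Of 6 fitted genes of type I interferon signalling, 1 was lower and 1 higher in liver (median -0.01) and 2 were lower in kidney (median -0.09).

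Receptors and kinases differed little. Ifng, the ligand, was close to the limit of detection, with median levels of 0.195 CPM in CON and 0.0553 CPM in SD liver and 0.207 and 0.0636 CPM in kidney, and its log2 changes of -0.96 ± 0.50 and -1.25 ± 0.40 did not pass (adjusted p = 0.198 and 0.129). Ifngr2 was at -0.02 ± 0.08 in liver and -0.07 ± 0.03 in kidney and Jak1 at 0.02 ± 0.04 and -0.09 ± 0.03, none of them called. Ifngr1 (-0.23 ± 0.05, adjusted p = 0.00404) and Jak2 (-0.16 ± 0.04, adjusted p = 0.00645) were lower in liver and were not called in kidney (-0.05 ± 0.04 and 0.02 ± 0.03). Irf1, which acts on ISRE elements, was lower in liver (-0.53 ± 0.11, adjusted p = 0.00234) and kidney (-0.62 ± 0.10, adjusted p = 0.000445). Stat2 was lower in kidney (-0.47 ± 0.09, adjusted p = 0.00218) and not called in liver (-0.11 ± 0.06). Irf9 and the effector Isg15 are listed at 0 in all 96 libraries, so nothing can be said of them.

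Among further pathway genes the largest changes in kidney were those of the chemokine Cxcl10 (-1.17 ± 0.15), the peptide transporter Tap1 (-1.05 ± 0.12), the immunoproteasome subunits Psmb9 (-1.02 ± 0.13) and Psmb8 (-0.98 ± 0.13), Irf7 (-1.0 ± 0.13), Nlrc5 (-1.0 ± 0.11), the nucleic acid sensor Zbp1 (-0.95 ± 0.14) and Gbp3 (-0.91 ± 0.11). In liver they were Socs1, the feedback inhibitor of the pathway (-1.39 ± 0.30, at a median of 0.403 CPM in CON), the guanylate-binding proteins Gbp4 (-1.18 ± 0.13), Gbp5 (-1.13 ± 0.15), Gbp8 (-1.10 ± 0.21) and Gbp2 (-0.97 ± 0.16), the MHC class II transactivator Ciita (-1.06 ± 0.12), the chemokine Cxcl9 (-1.02 ± 0.17) and Zbp1 (-0.99 ± 0.17). Guanylate-binding proteins work beside IRG proteins at parasite vacuoles. The median change of the IRG members (-0.58 in liver and -1.41 in kidney) stood beside list medians of -0.64 and -0.53 for the 32 interferon-induced effectors. Of 10 genes of the autophagy conjugation system, which IRG proteins need to find their targets, 3 were higher in liver (Atg5, Atg7 and Map1lc3b, by at most 0.21) and 0 in kidney by edgeR, where 3 had an unadjusted p below 0.05. Of all genes 9.42% were called higher in liver and 0.181% in kidney.

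**Figure D5:**
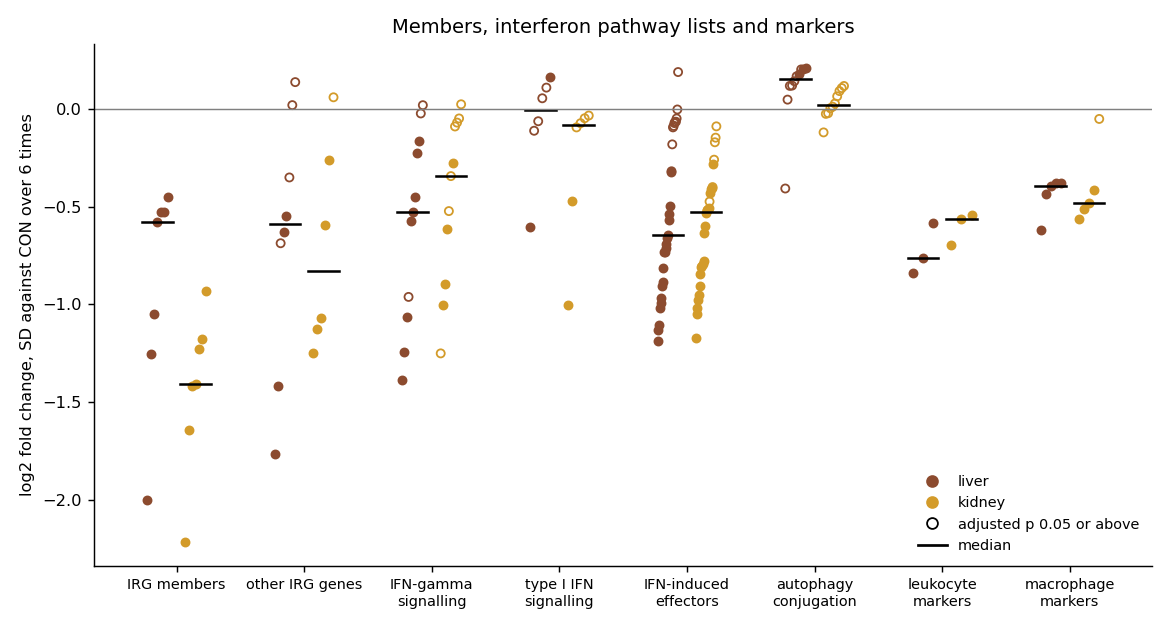
Log2 fold change of SD against CON over all times for single genes of each list in liver (brown) and kidney (yellow), filled where the adjusted p was below 0.05 and open otherwise, with black bars at the medians. The median of the IRG members is -1.41 in kidney, and in liver it is -0.58 beside -0.64 for the interferon-induced effectors and -0.76 for the leukocyte markers.

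Markers of immune cells moved with the family. The 3 pan-leukocyte markers Ptprc, Coro1a and Laptm5 were all lower in SD, by a median log2 value of -0.76 in liver and -0.56 in kidney, and their summed level ran from 137 to 260 CPM in liver CON and 66.0 to 120 CPM in liver SD, and from 65.2 to 116 CPM in kidney CON and 44.5 to 64.2 CPM in kidney SD. Of 25 fitted markers out of 26 for leukocytes, macrophages, microglia, B, T, NK and dendritic cells and neutrophils, 21 were lower in liver and 13 in kidney, with medians of -0.57 and -0.48 and none higher. Of all genes 8.80% were called lower in liver and 2.12% in kidney. The marker lists, too, were chosen with earlier results of these data known, so these counts are descriptions. Their sum ran from 792 to 1547 CPM in liver CON and 497 to 831 CPM in liver SD, and from 285 to 438 and 216 to 275 CPM in kidney, and the macrophage marker Cd68 is listed at 0 in every library. The 3 endothelial markers, with 1 lower in each tissue, had medians of -0.15 and -0.08. In forebrain 0 of 17 and in cerebellum 0 of 16 fitted immune markers were called by edgeR, with 6 and 0 unadjusted p-values below 0.05. The part of these markers in the lower IRG levels was not tested.

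The genes that followed the family most closely across kidney controls included guanylate-binding proteins and antigen-processing genes. The mean log2 CPM of the 7 fitted members over the 12 control kidneys correlated best, among 20682 other named genes, with Nlrc5 (Pearson r = 0.97, Spearman rho = 0.92), Gbp3 (0.97, 0.97), Gm12185 (0.96, 0.94), Themis2 (0.95, 0.92), Psmb9 (0.94, 0.94), Zbp1 (0.94, 0.94), Tap2 (0.94, 0.94), Gbp5 (0.94, 0.89), Gbp7 (0.94, 0.97) and Psmb10 (0.94, 0.94). The median r over all those genes was -0.02. Over the 12 SD kidneys, which did not enter the ranking, the same genes had r from 0.68 (Psmb10) to 0.87 (Gbp3), against a median of 0.05. Points share tissue and library, and control time and library are not separated, so these are descriptions.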

How the data were processed

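The authors extracted total RNA, made stranded total RNA libraries and, per their methods, trimmed paired reads with Trim Galore 0.6.4, aligned them to GRCm38 with HISAT2 2.1.0, kept alignments of mapping quality 60 or more with Samtools 1.9 and counted them by gene and strand with featureCounts 1.6.4. The values they deposited are counts per gene without normalization, and 24760295 to 58486579 were counted per library. The series table equals the 96 sample files, no 2 libraries are identical, and 0 columns were left unused. Requiring mapping quality 60 drops reads shared by near-identical genes such as Tgtp1 and Tgtp2, and featureCounts drops reads on exons of more than 1 gene, including the numbered loci, whose positions were not used here.

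Groups follow the titles, and no fit was run with the sample descriptions of the kidney libraries instead. CPM is the count over the column sum. Differences were fitted with edgeR 4.0.16 (R 4.3.3) after filterByExpr and TMM scaling, with the quasi-likelihood test and Benjamini-Hochberg adjustment over all genes of a fit, and a threshold of 0.05. SD was set against CON over all times with time as a factor, and at single times from group means. Times were compared within tissue and condition, and tissues over the 48 control libraries, with a log2 difference above 1 required. SE is the log2 change over the square root of F. DESeq2 1.42.0 and the other alternatives are given at the end. P-values measure the spread between libraries, called biological repeats in the study's reporting form. The scripts were tested on simulated counts.

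The members and gene lists were chosen with earlier results of these data known. The text names all 8 members and the other IRG genes, 9 fixed pathway genes (1 is not reported here), up to 8 further called pathway genes per tissue with the largest change, and the 10 genes most like the members in kidney (log2 CPM, prior count 2). Other genes named were examples chosen after their values were seen. Replicate numbers were not taken as pairing libraries, since no label ties them to a mouse and not every pair correlated: the correlation of same-numbered deviations passed 0.1 in 2 to 4 of 6 CON and SD pairs of a tissue and in 0 to 6 of 12 groups for a pair of tissues.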

Additional observations from a re-analysis of the deposited data

How the results depend on the processing

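The members called over all times numbered 7 in kidney and 0 in forebrain and in cerebellum under library sizes alone, RLE size factors, DESeq2, no filter, the replicate block and every fit that left out 1 library. In liver they numbered 7 under these settings and 6 to 7 when 1 library was left out, where Iigp1 lost its call in 10 of 24 fits. Library sizes alone moved the median log2 change of all liver genes from 0.01 to -0.13, which is to be set beside member values of -1.19 (Igtp) and -0.59 (Irgm1) there, and turned Jak1 in liver from 0.02 to -0.12. The pathway calls kept within 1.5 times (25 to 31 in kidney and 28 to 37 in liver), apart from forebrain, with 5 under DESeq2 and 1 to 3 when 1 library was left out (1 without SD CT24 replicate 2). At single times the kidney count of 5 became 13 under DESeq2 and 1 with library sizes alone, the liver count of 0 became 7 and 4, and the cerebellum count of 1 became 0 without CON CT8 replicate 1. Differences between times depended most on the settings. In CON kidney the count of 2 became 0 with library sizes alone, 7 without a filter and 0 to 5 when 1 library was left out. In CON liver 0 became 1 for a 24 h cosinor, 6 without a filter and 0 to 1 with 1 library left out, in SD liver 1 became 4, 3 and 1 to 4 (and 2 with library sizes alone), in SD kidney 3 and in SD cerebellum 1 without a filter, and in CON cerebellum 0 to 3 with 1 library left out (3 without CON CT8 replicate 2). Tissue counts stayed within 1.5 times, including fits on the SD libraries, where liver and kidney differed in 6 members. The replicate block changed no count of members or pathway genes, with 7, 7, 0 and 0 members called in kidney, liver, forebrain and cerebellum and 5 members between liver and kidney. The cause of these shifts was not tested.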
